A study of Caenorhabditis elegans with 2 samples.

Results

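NHR-85 occupancy was described at 9 *Caenorhabditis elegans* genes for subunits and partners of NuRD-type chromatin complexes, out of 19973 protein-coding genes annotated on ce11. They were *egl-27*, *lin-40*, *chd-3*, *let-418*, *hda-1*, *lin-53*, *rba-1*, *mep-1* and *dcp-66*. The 9 genes were chosen from earlier peak results of these same samples, in which the summits beside *egl-27* had been seen, so their counts and signals are given as a description and no test was made on them. The region of a gene was its annotated body plus 10 kb upstream, and a peak belonged to it where its summit, the position of highest signal, lay inside. The data were chromatin immunoprecipitation followed by sequencing (ChIP-seq) from 2 biological replicates of a single group, with no other condition. The worms were hermaphrodites of strain OP539, with the allele unc-119(tm4063) on chromosome III and the transgene wgIs539, which makes NHR-85 with GFP and FLAG fused at its C-terminus. They were synchronized as L1 larvae starved after bleaching and taken whole, 6 h after synchronization, and the labels do not say whether they had been fed. DNA was sheared by sonication and recovered with an antibody against GFP. Not given in the sources used here were the promoter that drives the transgene and its copy number. No GFP strain with another protein was analysed here, so peaks of NHR-85 and peaks that any GFP precipitation would give cannot be told apart. Whole larvae were used, so the cells that carried a peak are unknown.

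NuRD complexes join a Mi-2-type ATPase, which moves nucleosomes, to a class I histone deacetylase, and further subunits link the pair to chromatin. They are known as repressors that keep cell fate decisions in order during development. In *C. elegans*, EGL-27 and LIN-40 are the homologues of the MTA scaffold subunits, LET-418 and CHD-3 are the Mi-2 homologues, and HDA-1 is a class I deacetylase. LIN-53 and RBA-1 are histone-binding WD40 proteins of the RbAp46/48 type, DCP-66 is of the p66 type, and MEP-1 is a zinc-finger partner of LET-418. EGL-27 is known from Wnt-dependent cell polarity and cell migration, and LET-418 with MEP-1 from the silencing of germline genes in somatic cells. NHR-85 is a nuclear hormone receptor homologous to the mammalian clock repressor Rev-Erb. Many *C. elegans* transcripts are trans-spliced, so the annotated 5′ end of a transcript can lie downstream of where transcription begins.

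The sequences below are shown because they lie under the summits on which the description rests, namely the 4 strongest of *egl-27* and the only ones of *let-418* and *mep-1* in the list thresholded on the irreproducible discovery rate (IDR), a measure of agreement between replicates. Each is 201 bp of ce11 on the plus strand, 5′ to 3′, with the summit at base 101. Capitals mark matches, on either strand, to 4 searched motifs. AGGTCA is the core bound by many nuclear receptors. TGATAA is bound by factors of the family of ELT-2. GAGAGA is a simple repeat, which reads TCTCTC on the other strand. CACGTG is the E-box core.
egl-27, chrII:6842700-6842900: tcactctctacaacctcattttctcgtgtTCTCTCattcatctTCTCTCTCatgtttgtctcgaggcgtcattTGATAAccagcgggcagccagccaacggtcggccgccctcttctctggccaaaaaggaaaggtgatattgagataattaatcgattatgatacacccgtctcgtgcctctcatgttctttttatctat
egl-27, chrII:6835607-6835807: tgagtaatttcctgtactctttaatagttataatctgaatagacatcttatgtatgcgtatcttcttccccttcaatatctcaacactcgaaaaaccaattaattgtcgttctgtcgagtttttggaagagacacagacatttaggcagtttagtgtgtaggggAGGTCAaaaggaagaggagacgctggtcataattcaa
egl-27, chrII:6839124-6839324: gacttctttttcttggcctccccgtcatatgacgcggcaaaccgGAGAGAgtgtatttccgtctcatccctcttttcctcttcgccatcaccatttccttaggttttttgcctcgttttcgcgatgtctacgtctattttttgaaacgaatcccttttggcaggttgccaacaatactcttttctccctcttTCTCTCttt
egl-27, chrII:6829296-6829496: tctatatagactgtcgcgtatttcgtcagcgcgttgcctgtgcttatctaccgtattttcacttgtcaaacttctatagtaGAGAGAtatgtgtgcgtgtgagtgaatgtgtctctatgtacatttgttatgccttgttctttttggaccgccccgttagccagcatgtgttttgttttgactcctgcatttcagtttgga
let-418, chrV:5823109-5823309: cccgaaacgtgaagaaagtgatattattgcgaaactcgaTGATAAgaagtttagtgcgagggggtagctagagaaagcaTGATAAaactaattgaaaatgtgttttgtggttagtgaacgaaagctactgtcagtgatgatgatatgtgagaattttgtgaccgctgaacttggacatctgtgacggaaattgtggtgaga
mep-1, chrIV:11522570-11522770: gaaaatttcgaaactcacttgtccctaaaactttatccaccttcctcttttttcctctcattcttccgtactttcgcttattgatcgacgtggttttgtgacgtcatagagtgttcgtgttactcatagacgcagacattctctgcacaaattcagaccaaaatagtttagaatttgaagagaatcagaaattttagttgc
Across the windows of all 12 IDR summits found in the regions of the 9 genes, GAGAGA was present in 5, all of them at *egl-27*, where it occurred in 5 of 8 windows. The same letters were in 40.7% of the 2404 IDR windows of the genome. TGATAA was in 3 windows, 2 at *egl-27* and 1 at *let-418*, against 18.3% of all IDR windows. AGGTCA was in 1 window, the *egl-27* window at 6835607, against 11.1% of all, and CACGTG was in 0 of 12, against 13.1% of all. The *mep-1* window held none of the 4. A match is a description of the letters and not a measured binding site. The median GC content was 43.3% in the 12 windows and 41.3% in all IDR windows, and every 31-base stretch of the 12 windows occurred once in the genome.

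Occupancy was unequal among the 9 genes. In the IDR list, *egl-27* had 8 summits, *lin-53* and *rba-1* shared the same 2, *let-418* and *mep-1* had 1 each, and *lin-40*, *chd-3*, *hda-1* and *dcp-66* had 0. The 5 genes with a summit were 5 of 9, beside 24.2% of all protein-coding genes by the same rule. The 9 regions had a median length of 16 kb (11.6 to 22.9), beside a median of 12.0 kb for all coding genes. In the pooled list, called on the reads of both replicates together, all 9 genes had a summit, beside 54% of coding genes. The replicate 1 list gave 7 of 9, with *lin-40* and *hda-1* at 0, beside 54.7% of coding genes. The longer replicate 2 list gave 9 of 9, beside 68.5% of coding genes. The lists held 2404, 8389, 8092 and 13289 distinct peaks in the order IDR, pooled, replicate 1 and replicate 2, so a count in one list is not comparable with a count in another.

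**Figure D1:**
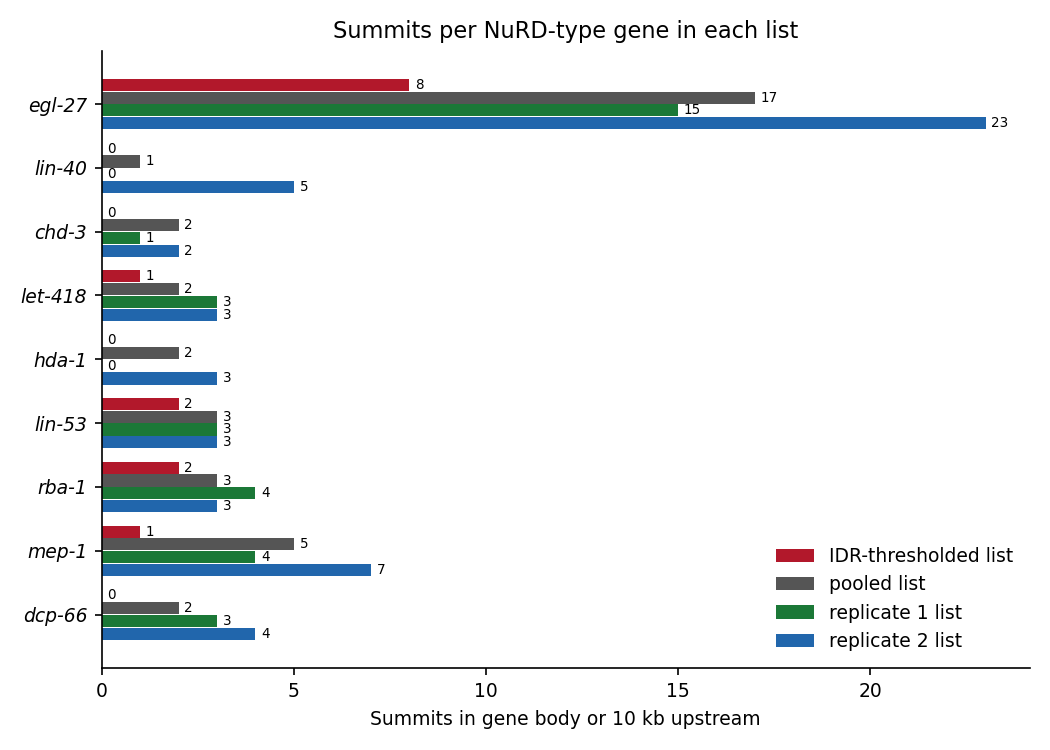
Number of summits, on the horizontal axis, in the body plus 10 kb upstream of each of the 9 genes, which are on the vertical axis. Bars are for the IDR, pooled, replicate 1 and replicate 2 lists. *egl-27* has 8, 17, 15 and 23, more than any other of the 9 in every list, and *lin-40* and *hda-1* have 0 in both the IDR and the replicate 1 list.

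Narrower rules left fewer genes. A summit from 1000 bp upstream to 200 bp downstream of a protein-coding transcript's start, here the coding promoter, was found in the IDR list for 2 of 9, *egl-27* and *lin-53*, beside 8.08% of coding genes. In the pooled list *chd-3* and *hda-1* joined them, giving 4 of 9 beside 19.4%. Counted only where the gene's own start was the nearest coding start to the summit, 3 of 9 remained in the IDR list. These were *egl-27*, *let-418* and *lin-53*, beside 8.54% of coding genes. For *lin-53* the call was narrow, at 231 bp against 236 bp for *nra-2*. The replicate 1 summit was nearer to *nra-2*, at 217 bp against 250 bp. The 12 IDR summits comprised 9 in promoters of any annotated transcript, non-coding ones included, and 3 between genes, with 0 in introns or coding exons outside promoters. The shares of these classes over all IDR summits are not given here, so the counts do not set the 12 apart from the list.

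The gene *egl-27* (WBGene00001194) lies on chromosome II from 6835008 to 6847908, on the plus strand, and its 24 annotated transcripts begin at 14 positions. These fall into 8 groups of starts within 100 bp of each other, at 0, 464, 2922, 5178, 5440, 6475, 7396 and 10352 bp from the first. The 8 IDR summits of its 22.9 kb region spanned 17.1 kb, 4 of them upstream of the gene and 4 inside it. Only 1 protein-coding gene of 19973 had more IDR summits, and 6.38% had 2 or more. The region held 0.349 summits per kb, 14.6 times the density of the list over the genome. By this density *egl-27* ranked 43 among the 19973 coding genes. No list gives read counts, so the depth behind these signals is unknown.

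**Figure D2:**
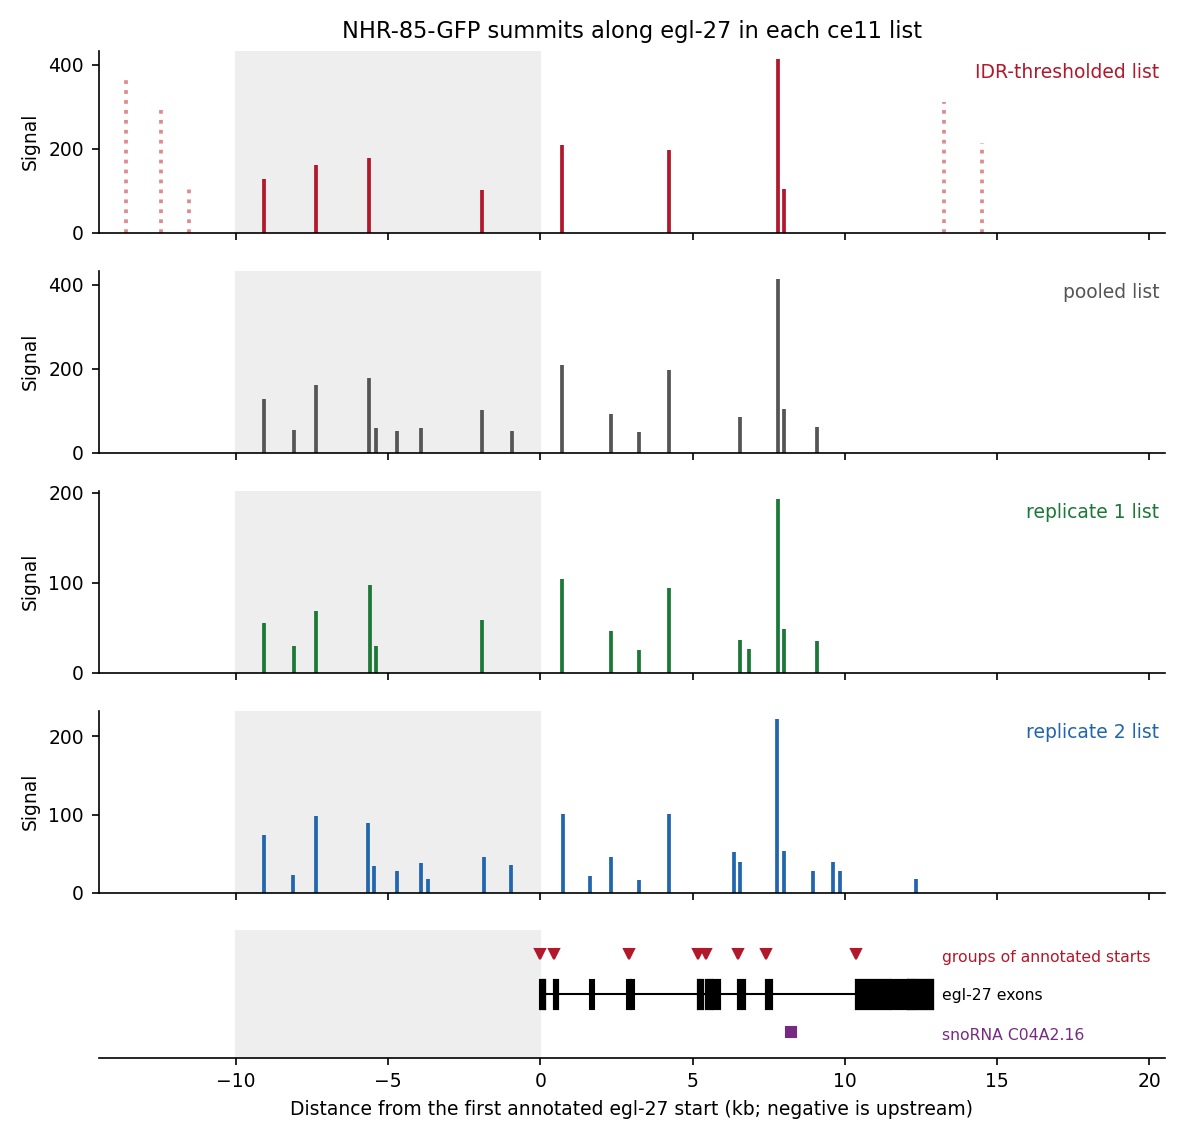
Summits along *egl-27* in the IDR, pooled, replicate 1 and replicate 2 lists, with distance from the first annotated start in kb on the horizontal axis and the peak caller's signal on the vertical axis. The upstream 10 kb is shaded, dotted lines are IDR summits outside the region, and the bottom row shows exons, start groups and a small nucleolar RNA gene; the tallest line, at 7.8 kb, is at the same place in every list.

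The strongest *egl-27* summit lay at 6842800, in a peak from 6842686 to 6842802, inside the gene and 7792 bp from its first start. Its signal, in the peak caller's own units, was 193 in replicate 1 and 222 in replicate 2 (207 ± 20.9, SD, n = 2). The 2 values come from separate calls that may differ in scale, so the SD does not measure biological spread alone. The pooled reads gave 412, which ranked 202 of the 2404 IDR peaks, and it ranked 253 in the replicate 1 list and 169 in the replicate 2 list. Both replicates placed their own summit within 17 bp of it. Measured against the start groups, it was 396 bp downstream of the one at 7396 bp, 1317 bp downstream of the one at 6475 bp and 2560 bp upstream of the last. It was thus in no coding promoter, and it counted as a promoter only through C04A2.16, a small nucleolar RNA gene within *egl-27* whose start lay 440 bp further downstream. A second summit, 203 bp further on at 6843003, was much weaker, with signals of 47.9 and 52.9 in the replicates and a pooled rank of 2214. The intervals of the pair overlapped by 15 bp, so they are not well separated as peaks.

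The other 2 summits inside *egl-27* were of like strength. That at 6835707, between the start groups at 464 and 2922 bp, had signals of 104 in replicate 1 and 100.5 in replicate 2, and lay 235 bp downstream of the nearest *egl-27* start and 14 bp upstream of a non-coding RNA gene, C04A2.9. That at 6839224 had 94.4 and 100.5 and lay 962 bp upstream of the start group at 5178 bp. It was the only one of the 8 within a coding promoter, whereas 7 of 8 lay within a promoter when starts of any transcript were used. The share of all IDR summits in such promoters is not given here.

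The 4 upstream summits lay 1900, 5612, 7372 and 9072 bp before the first start, in a stretch with 17 annotated non-coding RNA genes. The one 5612 bp upstream was the strongest of them, with 97.3 in replicate 1 and 89.4 in replicate 2, and was 285 bp upstream of F31E8.21. At 7372 bp the signals were 68.8 and 97.6, and the summit was 4 bp downstream of the start of F31E8.20. The summits at 9072 bp, with 54.9 and 73.4, and at 1900 bp, with 58.5 and 46.2, were weaker, and the first was the only one of the 8 classed as intergenic. Neither replicate was higher throughout: replicate 2 was higher at 5 of the 8 and replicate 1 at 3. Every one of the 8 had *egl-27* as the gene of its nearest coding start. So did 17 of 17 pooled summits, 15 of 15 in replicate 1 and 22 of 23 in replicate 2, where the other was nearest to *tbc-6*. By the region rule, however, the IDR summit at 6839224 also lay in the region of *tbc-6*. Those at 6842800, the strongest, and 6843003 also lay in the regions of *tbc-6* and C04A2.15.

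The edges of the rule were as follows. The weakest *egl-27* peaks inside the IDR list had pooled signals of 102 and 104, where the lowest of the whole list was 97.2. Just outside were pooled peaks with 93.1, at 2332 bp from the first start and 590 bp upstream of a start of its own, and with 85.2, at 6548 bp and 73 bp past a start of its own. Of the 17 pooled summits, 9 were upstream and 8 in the gene, with signals from 49.99 to 412 and a median of 93.1. Neighbouring IDR summits were 203 to 3712 bp apart, with a median gap of 2599 bp.

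The limit of 10 kb did not coincide with an end of the run of summits. Upstream, 3 more IDR summits lay 11528, 12460 and 13607 bp before the first start, with pooled signals of 116, 298 and 365. The farthest had 217 in replicate 1 and 144 in replicate 2, more than any of the 4 summits in the upstream 10 kb. Downstream, summits 369 and 1603 bp past the gene's end had pooled signals of 312 and 213 and belonged by distance to *tbc-6*, a TBC-domain gene. In all, 13 IDR summits lay between the end of *snt-1*, the synaptotagmin gene, and the end of *tbc-6*, with 28.1 kb from the first to the last. The 18.6 kb between *snt-1* and *egl-27* held 7 of them and 21 non-coding genes.

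**Figure D3:**
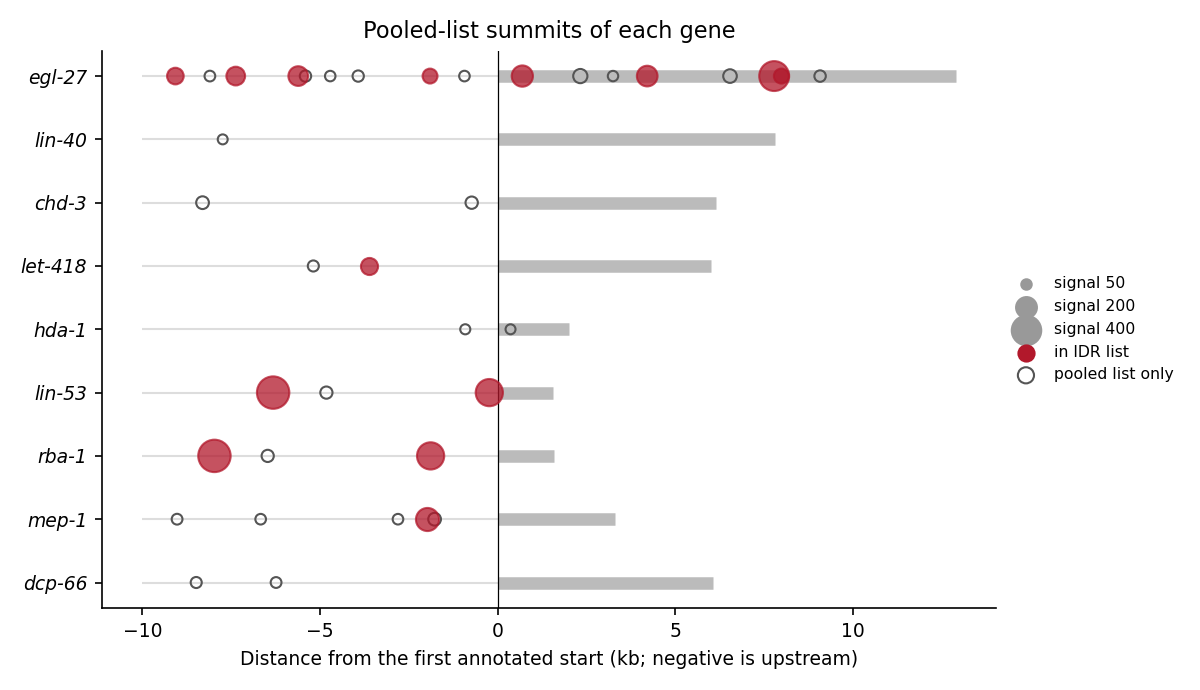
Position of every pooled-list summit in the regions of the 9 genes, 1 row per gene, with distance from the first annotated start in kb on the horizontal axis. Symbol area follows the pooled signal, filled symbols are also in the IDR list, and thick bars are gene bodies. IDR summits at *egl-27* run from 9.1 kb upstream to 8.0 kb inside, whereas *lin-53* and *mep-1* have theirs upstream of the gene.

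*lin-40* (WBGene00003025, chromosome V, 3704988 to 3712796), for the second MTA homologue, differed from *egl-27* in having 0 IDR summits. The pooled list had 1, of signal 45.6, 7739 bp upstream and inside an intron. Its nearest coding start was that of *unc-132*, 1277 bp away. Replicate 1 had 0 summits, and replicate 2 had 5, with signals from 16.7 to 32.2, of which the strongest lay 851 bp upstream of the first start. The lowest signal in the replicate 2 list was 15.8 and its median was 22.4, and the strongest of the 5 was above that median. The nearest IDR summit upstream of *lin-40* was 60.5 kb away.

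The genes for the Mi-2 homologues each had 1 or more peaks outside the IDR list. *let-418* (WBGene00002637, V, 5826833 to 5832831) had its IDR summit at 5823209, 3624 bp upstream, between genes and with no coding start nearer than its own. The signals were 68.6 in replicate 1 and 63.1 in replicate 2, and the pooled rank was 1556. A weaker pooled summit, of 56.4, lay 5187 bp upstream. Replicate 1 placed its summit 85 bp from the pooled one, the largest shift among the 12 sites. *chd-3* (WBGene00000482, X, 12846439 to 12852601) had a pooled summit of 70.3 at 727 bp upstream of its start, with 42.4 in replicate 1 and 26.6 in replicate 2. Its other pooled summit, of 74.7, was 8307 bp upstream and nearer to T14G8.3, and had a peak in the replicate 2 list only, of 49.8. Both pooled values were below the lowest of the IDR list.

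*hda-1* (WBGene00001834, V, 14525389 to 14527411), the deacetylase gene, had 2 weak pooled summits, of 46.9 at 908 bp upstream and 45.8 in an intron 367 bp inside. Replicate 2 listed peaks at or near both places, with 30.6 and 25.7, and another at 17.9, 8613 bp upstream, whereas replicate 1 listed 0 peaks in the region. The upstream summit was nearer to the start of *ril-1*, 352 bp away, than to that of *hda-1*.

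The histone-binding subunit genes lie side by side on the minus strand of chromosome I, *rba-1* (WBGene00004312, 9616516 to 9618107) 88 bp from *lin-53* (WBGene00003036, 9618196 to 9619760). A strong summit at 9619991 lay 231 bp upstream of *lin-53*, with signals of 174 in replicate 1 and 166 in replicate 2 and a pooled rank of 310. It was also 236 bp upstream of *nra-2*, a divergent gene separated from *lin-53* by 466 bp, so distance alone does not assign it to either gene. The second summit, at 9626079, had 274 in replicate 1, the highest of the 12 sites there, and 213 in replicate 2, and was 6319 bp from *lin-53* but 162 bp from *hsr-9*. For *rba-1* the same pair lay 1884 and 7972 bp upstream, and the *rba-1* start was the nearest coding start to neither. Between the pair of IDR summits lay a weak pooled summit of 68.6 in a coding exon. Its nearest coding start was that of *rps-19*, 1217 bp away.

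*mep-1* (WBGene00003218, IV, 11524642 to 11527954) had its IDR summit at 11522670, 1972 bp upstream, with 131 in replicate 1 and 118 in replicate 2 and a pooled rank of 602. It lay in the 2427 bp between *gfl-1* and *mep-1*, 456 bp past the end of *gfl-1*, and its nearest coding start was that of *gfl-1*, 1380 bp away. The other 4 pooled summits of *mep-1* had signals from 51.9 to 74.7, all below the IDR list. *dcp-66* (WBGene00000938, I, 7536104 to 7542159) had pooled summits of 56.3 and 53.8 at 8485 and 6236 bp upstream. Its replicate signals ran from 25.5 to 29.1 in replicate 1 and from 17.0 to 28.4 in replicate 2, beside list medians of 34.4 and 22.4.

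The replicates gave like values at the 12 sites. The IDR list keeps peaks for agreement between these same 2 replicates, so this likeness was partly set by the selection and is not separate support. The ratio of replicate 1 to replicate 2 ran from 0.705 to 1.29 with a median of 1.04, and replicate 1 was higher at 7 sites and replicate 2 at 5. Over the 2392 IDR peaks found in both replicates, the median ratio was 1.0 and 90% of ratios were between 0.621 and 1.54, so the 12 sites stayed within the usual spread of the list. The 12 summits lay a median of 6.0 bp from the pooled position in replicate 1 and 14.0 bp in replicate 2, beside 8.0 and 6.0 bp for all. Signals of the replicates come from separate calls and may differ in depth.

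**Figure D4:**
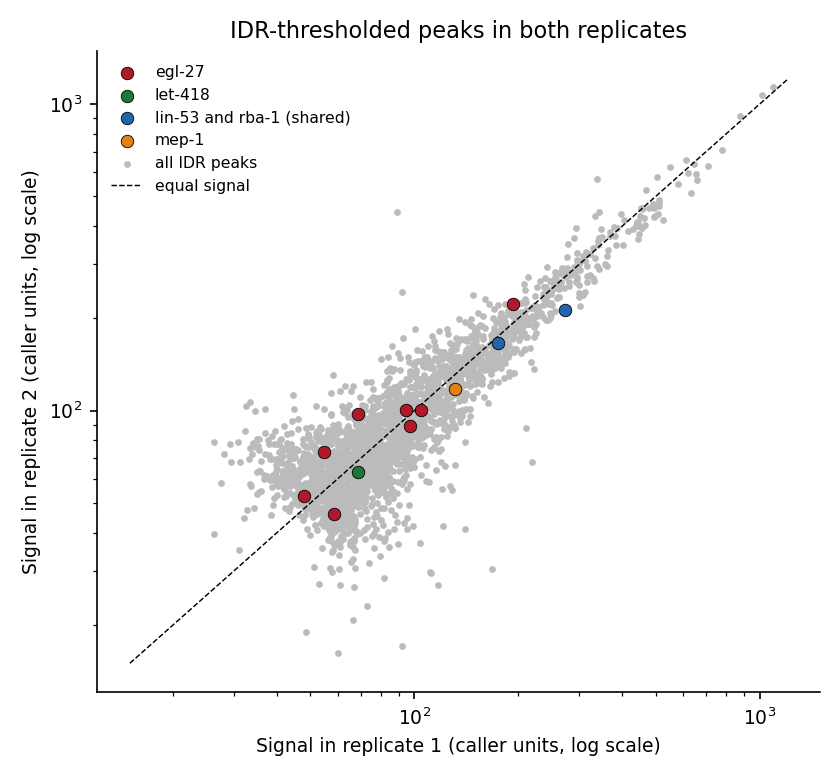
Signal in replicate 1 on the horizontal axis and in replicate 2 on the vertical axis, both in the peak caller's units on log scales, for the 12 IDR sites of the 9 genes and for all IDR peaks found in both replicates. The dashed line is equal signal, and the sites of the 9 genes lie within the cloud, with ratios from 0.705 to 1.29.

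Other chromatin genes give the setting of these counts, from 7 lists with 46 names, of which 45 were matched by symbol. An IDR summit lay in the region of 27 of the 45, beside the 24.2% of all coding genes given above, and in the coding promoter of 15, beside 8.08%. Their regions had a median length of 15.1 kb. By list, the genes with an IDR summit were 4 of 7 other histone deacetylases, 5 of 7 of the DREAM complex, 4 of 7 heterochromatin synMuv genes, 7 of 11 SWI/SNF genes, 1 of 3 PRC2-type genes, 3 of 4 other CHD and ISWI remodellers and 3 of 6 SIN3 and CoREST genes. The 9 NuRD-type genes, at 5 of 9, were within the range of these lists, and no list was tested against another.

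In the DREAM complex, which represses cell cycle genes with the retinoblastoma homologue LIN-35, summits lay 172 bp upstream of *lin-9*, 176 bp upstream of *efl-1* and 202 bp upstream of *lin-35*, with pooled signals of 321, 310 and 208. The *lin-54* summit, of 587, was nearest to *rpl-12*, a ribosomal protein gene. Among remodellers, *nurf-1* had a summit of 209 at 178 bp upstream, *chd-7* one of 299 at 908 bp upstream, and *chd-1* one of 300.2 nearest to *ubql-1*. The SWI/SNF gene *let-526* had 4 IDR summits and *pbrm-1* had 5, the strongest at 418 and, nearest to T28F4.5, at 313, fewer than the 8 of *egl-27*, and the strongest of *swsn-4* and *swsn-3* were 218, nearest to *enpl-1*, and 204, nearest to *swsn-3* itself. In the heterochromatin list, *hpl-2*, for an HP1 protein, had a summit of 912 that was nearest to *tasp-1*, and *lin-15B*, *met-2* and *lin-13* had 144, 134 and 123, the last pair nearest to *lmbr-1* and *ncl-1*. The methyltransferase gene *mes-2* had 118 at 135 bp upstream, and the deacetylase genes *hda-10*, *hda-4*, *hda-11* and *hda-6* had 268, 232, 197 and 129, of which the *hda-11* summit was 84 bp upstream and that of *hda-10* nearest to *ndub-8*. In the SIN3 and CoREST list, *sin-3* had 301 nearest to *lin-28*, *rcor-1* had 133 at 371 bp upstream and *amx-1* had 102 nearest to *dpy-27*.

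**Figure D5:**
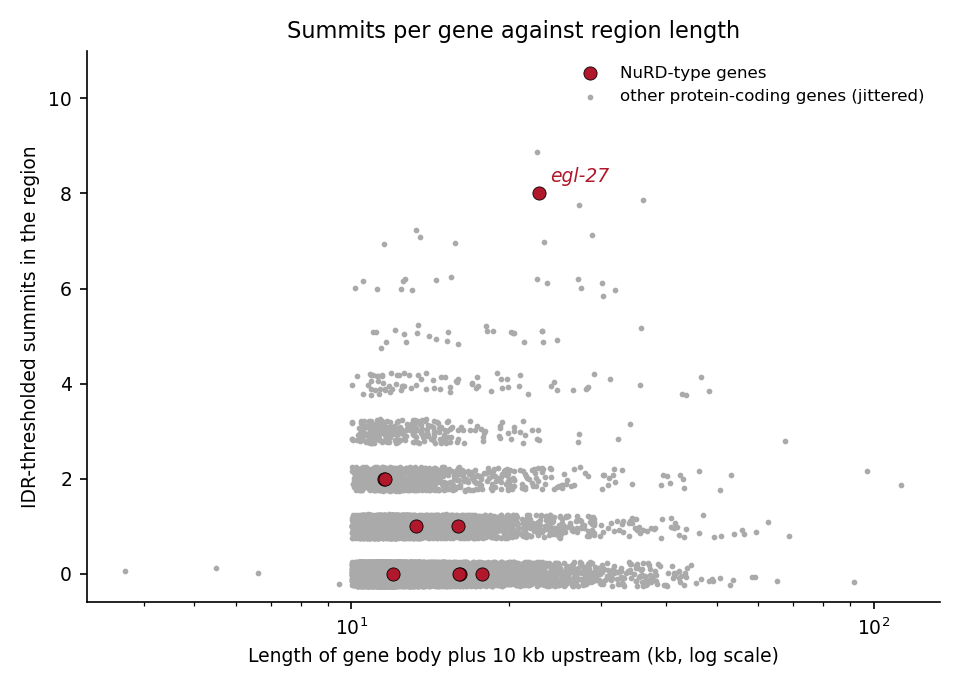
IDR summits per gene on the vertical axis against the length of gene body plus 10 kb upstream in kb on a log axis, for the 9 NuRD-type genes and the other protein-coding genes, which are jittered for visibility. *egl-27*, with 8 summits in 22.9 kb, has the most of the 9, of which the others have 0 to 2, and 1 other protein-coding gene has more.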

How the data were processed

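Peak lists on ce11 came from ChIP-seq of 2 biological replicates in 1 group. Per the deposited files' descriptions, peaks were called in each replicate and in the pooled reads against a control alignment, and the IDR list was made from these. Not given in the sources used here are the aligner, the caller, its thresholds and any scaling of the deposited signal to depth. That signal is in caller units. The deposited −log10 q-value was at its ceiling of 3.51 in 67.8% of the distinct IDR peaks and was not used to rank. Signals, as the authors made them, describe and rank peaks within 1 list.

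Repeated intervals were reduced to the stronger summit (2410 IDR lines to 2404), and 1 summit was moved to its peak's end. Genes and starts came from Ensembl release 115 (WBcel235, the same assembly as ce11) and sequence from RefSeq. Overlaps, distances, motif counts and ranks were computed with Python 3.11.15, pandas 2.3.3 and NumPy 2.4.6. Promoters covered 1000 bp before and 200 bp after a start. The steps were tested on simulated data. All 9 members were named with every IDR summit, whereas summits found only in the pooled or replicate lists were given in part. For example, replicate 2 also listed peaks of 17.6 at 641 bp upstream of *let-418* and of 18.8 at 185 bp upstream of *dcp-66*. From each other list up to 4 genes with the strongest summit were eligible. The members and lists were chosen with earlier results of these data known. No test was made, since there was 1 group. The labels call the samples biological replicates. Lists on ce10 were not used here. Alternatives covered the list, each replicate alone, the signal threshold, the upstream reach, the assignment rule and the motif window.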

Additional observations from a re-analysis of the deposited data

How the results depend on the processing

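The 5 genes with an IDR summit became 9 in the pooled list, 9 in the full replicate 2 list and 3 where the nearest coding start had to be the member's, beside 54%, 68.5% and 8.54% of coding genes. It was 4 above the IDR list's median signal (beside 14.0% of coding genes), 4 with 2 kb upstream (11.6%), 5 with 5 kb (16.9%), 7 with 20 kb (36.1%), 7 in the full replicate 1 list (54.7%) and 5 by peak overlap (24.8%). The 12 summits in the 9 regions became 34 in the pooled, 30 in the replicate 1 and 50 in the replicate 2 list, 7 among IDR peaks above that list's median signal and 7 with 2 kb upstream. The 8 *egl-27* summits became 17, 15 and 23 in those longer lists, 4 above the IDR median, and 5 with 2 kb or 5 kb upstream. The *egl-27* region held 0.333% of the IDR list, 0.203% of the pooled, 0.185% of the replicate 1 and 0.173% of the replicate 2 list. The list, the region or the assignment rule differed between these counts, and the cause of the shifts was not tested. With each replicate left out in turn, using as many of the other's strongest peaks as the IDR list holds, the genes numbered 5 to 6 (beside 24.1% of coding genes without replicate 2 and 24.3% without replicate 1), the summits 11 to 13 and the *egl-27* summits 7 to 8. The strongest *egl-27* signal was 193 to 222 in single replicates against 412 pooled, values on separate scales. The *egl-27* span of 17067 bp was 18157 bp in the pooled list, 13404 bp above the IDR median and 16882 to 17066 bp with a replicate left out. Within 50 bp of the summit, AGGTCA was in 0 of 12 windows, beside 6.53% of all IDR windows at that width, and GAGAGA in 3 of 12, beside 25.5%. Counting promoters by coding starts, an alternative chosen after seeing the data, gave 1 of 8 against 7 of 8. No paired analysis was possible because there was 1 group. Depth is unknown, so a gene without a peak is one without a listed peak.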

Other observations

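By number of IDR summits in body plus 10 kb upstream, over both replicates pooled, the genes most like *egl-27* were *mnk-1*, a MAP kinase-interacting kinase gene, with 9 in 22.6 kb, *pkg-2*, a cGMP-dependent protein kinase gene, with 8 in 27.3 kb, and *daf-16*, the FOXO gene of insulin signalling, with 8 in 36.2 kb. *ccch-1* had 7 in 23.4 kb and *mdl-1*, a gene of the Max network, had 7 in 11.5 kb. The summed pooled signal of the IDR summits was 1492 for *egl-27*, 3094 for *mnk-1*, 1890 for *pkg-2*, 1380 for *daf-16*, 2656 for *ccch-1* and 2633 for *mdl-1*. Among these 6 genes, *mdl-1* had the highest density, at 0.606 summits per kb against 0.349 for *egl-27*.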
